A study of Mus musculus with 39 samples.

Results

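The 3 intestinal libraries of the combined granulocytic and monocytic (G+M) sort were compared with the 6 intestinal libraries of the separate granulocytic (G) and monocytic (M) sorts, 9 of the 39 libraries of the series. A gene counted as lying outside both single sorts when all 3 combined libraries were above, or all 3 below, all 6 single-sort libraries. Of the 18466 genes tested, 1326 lay above (7.18%) and 603 below (3.27%), together 1929 (10.4%). Among these, 422 were called (2.29%), 311 higher (1.68%) and 111 lower (0.601%), where called means an adjusted p under 0.05 in limma and a difference of at least 1 in mean log2(TPM + 1), where TPM is the share of transcripts in a library, scaled to a sum of 1000000. The 311 genes above were led by Car1, Saa1 and Tgm3, members of the colon surface and transport list used here. The 111 below were led by cytotoxic lymphocyte genes, among them Gzma.

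The series measured polyadenylated RNA of cells sorted as myeloid-derived suppressor cells, a mixed population known for damping T cell responses, in 13 groups of 3 libraries. All the intestinal libraries come from mice labelled APCmin/+ mutant, which carry a truncating mutation in 1 copy of the tumour suppressor Apc and develop intestinal tumours. The intestinal groups are the combined sort, the G sort, the M sort and single cells of the intestine, here called all cells. The comparison at a second site used the combined, G and M sorts of APCmin/+ spleen. The remaining groups are newborn marrow of B6 mice (all cells, G and M sorts) and spleen of BALB/c mice (combined, G and M sorts). They enter the shared spread and the levels outside the intestine, so these do not come from APCmin/+ mice alone. Neither the surface markers of the sorts, nor the age or sex of the APCmin/+ mice, nor the stretch of intestine taken for each library is given in the sources used here. No label states that the replicates are different mice, so p-values measure only the spread between these samples.

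The lining of the small bowel digests and absorbs nutrients, and its enterocytes make digestive enzymes, fatty acid binding proteins, apolipoproteins and, near its end, the machinery that recovers bile acids. The lining of the colon chiefly absorbs water and salt and lives beside dense bacteria, and its surface cells make carbonic anhydrases, water and ion transporters and defence proteins. Where along the gut an epithelial cell arose is recorded by position genes, above all the 5′ members of the Hox clusters, which are active toward the tail end of the embryo. Intraepithelial lymphocytes sit between the epithelial cells and carry granzymes.

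The myeloid label was checked against marker levels before the comparison. Epcam, an epithelial adhesion protein, was at 977, 771 and 848 TPM in the 3 combined libraries and between 810 and 1062 in the 6 single sorts, and the ranges overlap. The 14 genes shared by gut epithelium summed to 11708 ± 1850 TPM (SD, n = 3) in the combined sort, against 40.3 ± 2.38 in the combined sort of APCmin/+ spleen. The 13 granulocyte genes summed to 123 ± 73.6 TPM in the intestinal combined sort and 50532 ± 21859 in the splenic one. The libraries labelled as combined myeloid sort from intestine therefore held mostly transcripts of epithelium among these markers, and in bulk RNA fewer cells of a type and less RNA per cell cannot be told apart.

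Sex-linked transcripts set combined libraries 1 and 2 apart from every single sort. Xist, the X-inactivation transcript, was at 0.87, 0.08 and 225 TPM in the combined libraries, at 0.44, 0.22 and 255 in all cells and between 146 and 253 in the 6 single sorts. Ddx3y, encoded on the Y chromosome, was at 23.3 and 21.7 in combined libraries 1 and 2, listed at 0 in library 3 and at most 0.05 in the single sorts. Combined library 3 therefore matched the single sorts in these transcripts, and list counts are given below for it alone as well, in a comparison added after the data were seen. The 6 pancreatic acinar genes summed to 438 TPM in combined library 3 and to 0 and 0.14 in libraries 1 and 2, with 245 in G library 3, 154 in M library 3 and 1498 in library 3 of all cells. Mitochondrial genes took between 14.8% and 16.3% of TPM in the combined libraries and between 8.19% and 20.0% in the single sorts. The part of these differences in the results below was not tested beyond the values given. With combined libraries 1 and 2 unlike every single sort, a difference between sorts cannot be told apart from one between source animals.

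The promoters of Saa1, Tgm3, Aqp8 and Gzma are shown because these genes lead the 2 sides of the comparison: Saa1, Tgm3 and Aqp8 were among the 10 largest increases, and Gzma the largest decrease. Each sequence is 250 bases before to 50 after the start in RefSeq, build GRCm38.p6, read 5′ to 3′ on the strand of the gene, at chr7:46742931-46743230 (minus strand) for Saa1, chr2:130012090-130012389 (plus) for Tgm3, chr7:123462044-123462343 (plus) for Aqp8 and chr13:113100932-113101231 (minus) for Gzma. Capitals mark TTTATNG on either strand (CNATAAA on the other), the core bound by the gut factors Cdx1 and Cdx2.
Saa1: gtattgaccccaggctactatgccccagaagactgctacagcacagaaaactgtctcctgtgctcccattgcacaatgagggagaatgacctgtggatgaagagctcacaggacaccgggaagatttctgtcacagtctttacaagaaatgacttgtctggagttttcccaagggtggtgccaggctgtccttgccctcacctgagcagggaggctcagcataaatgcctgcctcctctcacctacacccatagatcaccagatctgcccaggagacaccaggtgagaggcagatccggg
Tgm3: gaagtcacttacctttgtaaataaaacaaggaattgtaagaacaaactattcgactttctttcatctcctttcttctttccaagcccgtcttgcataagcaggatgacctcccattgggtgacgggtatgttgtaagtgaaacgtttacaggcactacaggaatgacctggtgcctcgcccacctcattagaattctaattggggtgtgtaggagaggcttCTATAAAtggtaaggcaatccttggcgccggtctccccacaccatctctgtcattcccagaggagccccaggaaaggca
Aqp8: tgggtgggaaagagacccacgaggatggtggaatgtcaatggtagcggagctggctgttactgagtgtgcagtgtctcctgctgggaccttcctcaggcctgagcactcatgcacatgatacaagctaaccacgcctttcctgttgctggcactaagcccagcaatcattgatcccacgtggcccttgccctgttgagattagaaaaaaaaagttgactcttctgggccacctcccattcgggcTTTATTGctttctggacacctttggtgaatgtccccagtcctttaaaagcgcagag
Gzma: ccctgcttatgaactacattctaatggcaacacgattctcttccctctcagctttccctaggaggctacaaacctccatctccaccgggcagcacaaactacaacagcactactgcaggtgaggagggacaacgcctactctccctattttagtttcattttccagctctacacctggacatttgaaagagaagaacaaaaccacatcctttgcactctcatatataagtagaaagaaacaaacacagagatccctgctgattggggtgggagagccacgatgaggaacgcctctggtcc

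The match in Tgm3 begins 29 bases before the start and holds the letters of a TATA box, so the motifs overlap there, and the match in Aqp8 begins 6 bases before the start. TTTATNG was found in 2 of the 6 promoters available among the 10 named genes that rose (Tgm3, Aqp8) and in 2 of the 7 among the 10 that fell (Mcpt1, Reg1), against 10.9% of 32851 promoters of this length. The motif CAAAGTCCA (TGGACTTTG on the other strand), a form of the site of the enterocyte factor Hnf4a, was in none of these 13 and in 0.475% of all. These matches describe letters in a window and show no binding. Cdx1 and Cdx2 themselves were abundant on both sides: Cdx1 was at 142, 104 and 158 TPM in the combined libraries and between 68.1 and 118 in the single sorts, and Cdx2 at 99.9, 76.0 and 96.0 against 72.1 to 106. The ranges overlap for both factors and neither was called.

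The markers of the colon surface separated the combined libraries from both single sorts with no intermediate library. Car1, carbonic anhydrase 1, which makes bicarbonate and lies on chromosome 3 from 14766216 to 14808368 (minus strand, GRCm38), was at 1359, 695 and 1284 TPM in combined libraries 1 to 3. It was at 0.28, 2.26 and 0.05 in the G sort and 0.28, 0.33 and 0.34 in the M sort. The 3 combined libraries were all high and the 6 single sorts all near 0, a difference of 9.51 ± 0.49 (SE) in mean log2(TPM + 1), adjusted p = 3.14e-15 in the limma fit of 39 libraries. Car1 is also a gene of red cells, and its mean was 276 TPM in the M sort of APCmin/+ spleen and 483 in all cells of newborn marrow. For the 6 erythroid genes the sums ran from 13.3 to 44.2 TPM in the combined libraries and from 14.1 to 78.8 in the single sorts, and 0 of the 6 were called in limma (0 at an unadjusted p under 0.05).

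Saa1, serum amyloid A1, an acute-phase and antibacterial protein (chromosome 7, 46740497 to 46742980, minus strand), was at 761, 886 and 679 TPM in the combined libraries. The single sorts ran from 3.00 to 5.77, so the groups did not overlap, and the difference was 7.09 ± 0.17 (adjusted p = 2.74e-24). Tgm3, transglutaminase 3, which cross-links proteins of surface epithelia (chromosome 2, 130012349 to 130050399, plus strand), was at 121, 76.6 and 103 TPM in the combined libraries and at most 0.04 in the 6 single sorts. The difference was 6.61 ± 0.15 (adjusted p = 6.12e-25). Several of these genes are near 0 in most of the other 30 libraries, which share in the estimate of spread, so the 9 intestinal libraries were also fitted alone: the adjusted p was then 2.24e-06 for Car1, 3.98e-08 for Saa1 and 2.3e-08 for Tgm3. All cells held the 3 genes at the level of the combined sort, with means of 1181 TPM for Car1, 612 for Saa1 and 89.6 for Tgm3.

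**Figure D1:**
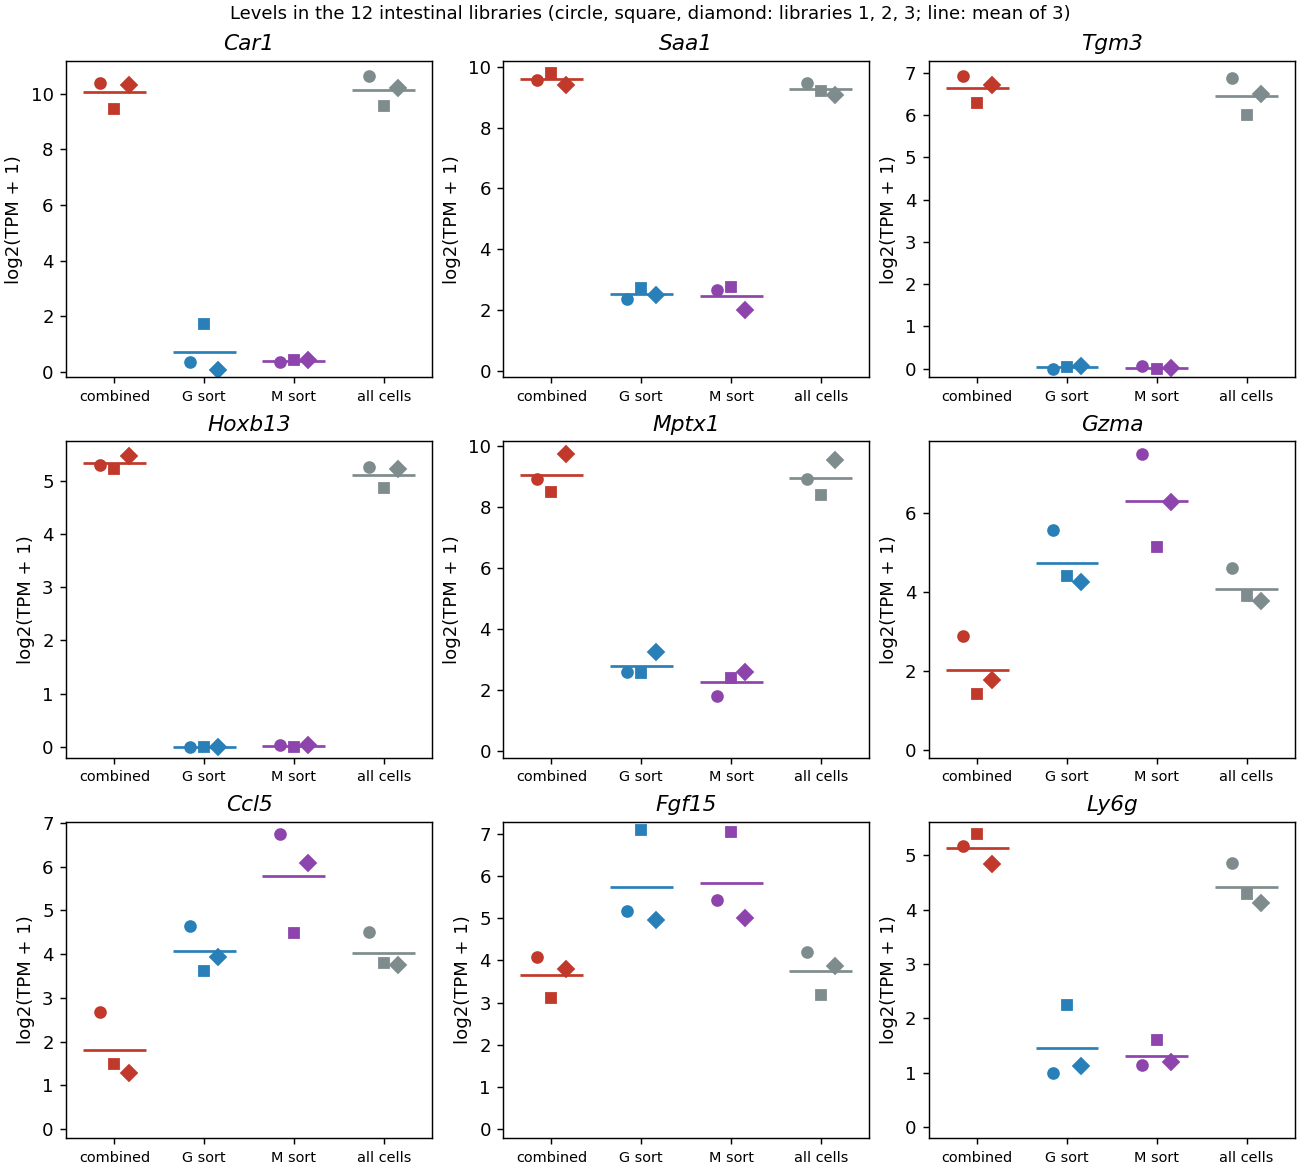
Level of 9 genes in the 12 intestinal libraries, as log2(TPM + 1) on the vertical axis, by sort on the horizontal axis; each symbol is 1 library (circle, square and diamond for libraries 1, 2 and 3) and the line is the mean of 3. For Car1, Saa1, Tgm3, Hoxb13 and Mptx1 the combined libraries and all cells sit high and the single sorts low, and for Gzma and Ccl5 the combined libraries sit below every other library.

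The colon surface and transport list held 18 genes, of which 16 passed the filter on low values. Of these, 14 rose and none fell, and all 16 lay above all single sorts, beside 7.18% of all genes tested. The median difference was 3.43, beside 0.08 over all genes tested, and 335 of all genes rose (1.81%). Members that pass the filter only through the combined libraries and all cells had to differ, so the count carries that choice. The summed level of the list was 8744, 5824 and 7393 TPM in the combined libraries, 2363 to 2611 in the G sort and 1802 to 2220 in the M sort. In APCmin/+ spleen it was 278 to 637 in the combined sort, 259 to 957 in the G sort and 458 to 1346 in the M sort. The list is therefore not confined to the gut.

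Among transporters, Aqp8, a water channel of the colon surface, was at 167, 124 and 133 TPM in the combined libraries and between 0.47 and 4.17 in the single sorts (difference 5.66 ± 0.23, adjusted p = 1.87e-18). Atp12a, the proton and potassium pump of the distal colon, was at 59.3, 27.9 and 49.5 TPM against at most 0.04 (5.46 ± 0.17). Slc6a14, an amino acid transporter, was at 115, 52.6 and 118 against 0.91 to 3.79 (4.97 ± 0.23). The 3 genes shared 1 picture: every combined library was many times above the highest single sort.

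Other members differed less, and the single sorts also expressed them. Slc26a3, the chloride and bicarbonate exchanger, was at 232, 139 and 216 TPM in the combined libraries and between 61.8 and 83.0 in the single sorts (1.40 ± 0.15, adjusted p = 2.73e-08). Car4, a membrane-bound carbonic anhydrase, was at 491, 326 and 386 against 71.7 to 133 (2.01 ± 0.18). Neither group of libraries overlapped. Fxyd4 (3.98), Slc37a2 (3.72), Cyp2c55 (3.15), Aqp4 (2.67), Cd177 (1.90) and Cldn8 (1.79) also rose.

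Lypd8 and Scnn1b were not called although their groups did not overlap. Lypd8, a surface protein that keeps flagellated bacteria from the colon lining, was at 5061, 3241 and 3988 TPM in the combined libraries and between 1610 and 2365 in the single sorts, a difference of 1.00 ± 0.46 (adjusted p = 0.172). Scnn1b, the beta subunit of the epithelial sodium channel, was at 1.30, 1.82 and 0.95 against 0.09 to 0.30, a difference of 0.97 ± 0.08, under the fold minimum. Scnn1g, the gamma subunit, and Saa2 were under the filter, with combined means of 0.953 and 0.837 TPM and single-sort means of 0.12 and 0.02. Lypd8 was high in both kinds of sort, so the colon list was not absent from the single sorts.

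The closest relatives of the markers did not all follow them. Car2, a cytosolic carbonic anhydrase, was at 189, 116 and 265 TPM in the combined libraries and between 4.92 and 9.78 in the single sorts (4.40 ± 0.45, adjusted p = 1.83e-08). Saa3 was at 9.24, 4.33 and 4.18 against 0.13 to 0.70 (2.26 ± 0.65, adjusted p = 0.0175). Tgm2, tissue transglutaminase, was at 42.5, 40.9 and 45.1, below the single sorts at 51.9 to 71.6, and was not called (-0.46 ± 0.25, adjusted p = 0.265). Near-identical copies can share reads, and how RSEM divided them here is unknown, so Saa1 and Saa2 in particular are uncertain as separate values.

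Hoxb13, Hoxa13 and Hoxd13, position genes of the hind gut, were listed at or near 0 in the single sorts. The posterior gut position list as a whole was not at 0 there. Hoxb13, the last gene of the Hoxb cluster (chromosome 11, 96194316 to 96197447, plus strand), was at 37.99, 36.3 and 43.1 TPM in the combined libraries. It was listed at 0 in all 3 G libraries and in M library 2, and at 0.02 in M libraries 1 and 3 (5.31 ± 0.07, adjusted p = 1.16e-30, and 2.3e-08 with 9 libraries). Hoxa13 was at 5.13, 6.26 and 7.68 TPM and listed at 0 in all 6 single sorts (adjusted p = 7.67e-23). Hoxd13 was at 4.42, 10.8 and 2.82 and likewise listed at 0 in all 6 (adjusted p = 8.88e-11). The 3 genes are the most posterior of their clusters, and for each of them the groups did not overlap.

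Of the 8 genes of the posterior gut position list, 7 were in the table and 5 passed the filter, and these 5 rose; a member that passes only through the libraries where it is high has to differ, so the count is a description. Hoxd10, among these, was at 1.03, 2.38 and 0.41 TPM against 0. Under the filter, Hoxd11 was at 0.96, 3.06 and 0.41 against 0, and Hoxd12 was at 0.27 and 3.32 in combined libraries 1 and 2 and listed at 0 in library 3 and in the single sorts. Prac1 was not matched.

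All 39 Hox genes in the table were then examined, a list chosen after the data were seen. In the Hoxa cluster the differences were larger from Hoxa7 to Hoxa10 (2.76 to 3.17) than from Hoxa3 to Hoxa6 (1.40 to 1.43). Hoxa3 was at 3.99, 4.00 and 5.78 TPM in the combined libraries and between 0.59 and 1.94 in the single sorts (1.43). Hoxa7 was at 8.41, 9.43 and 13.2 against 0.28 to 1.23 (2.76), and Hoxa10 at 6.65, 10.8 and 8.80 against 0 to 0.16 (3.17). In the Hoxb cluster, Hoxb3 to Hoxb8 overlapped between the groups and were not called, with differences from 0.30 to 0.67. Hoxb9 was at 25.8, 16.9 and 20.1 TPM against 5.53 to 14.7 (1.09, adjusted p = 1.24e-06), and Hoxb13 next to it was near 0 in the single sorts. The Hoxc genes stayed at or under 0.5 TPM in all 12 intestinal libraries. Of the 19 Hox genes that passed the filter, 11 rose, none fell, and 13 lay above all single sorts, beside 1.81% and 7.18% of all genes. At an unadjusted p under 0.05 in limma, 17 of the 19 were higher and 0 lower, beside 2989 higher of the 18466 genes tested. Some of the 19 passed only through the libraries where they are high, so these counts are a description. Hoxb13, Hoxa13, Hoxd13 and Hoxd10 are among those at or near 0 in the single sorts.

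Hoxa11os, a transcript antisense to Hoxa11, was at 37.4, 40.2 and 43.8 TPM in the combined libraries and listed at 0 in all 6 single sorts (adjusted p = 3.42e-29). Hoxa11 itself was under the filter, at 0.21, 0.47 and 0.27 TPM against 0. The libraries were made with a kit that keeps the strand, but the strand setting of the counting is not given in the sources used here, so reads of the 2 genes cannot be told apart.

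**Figure D2:**
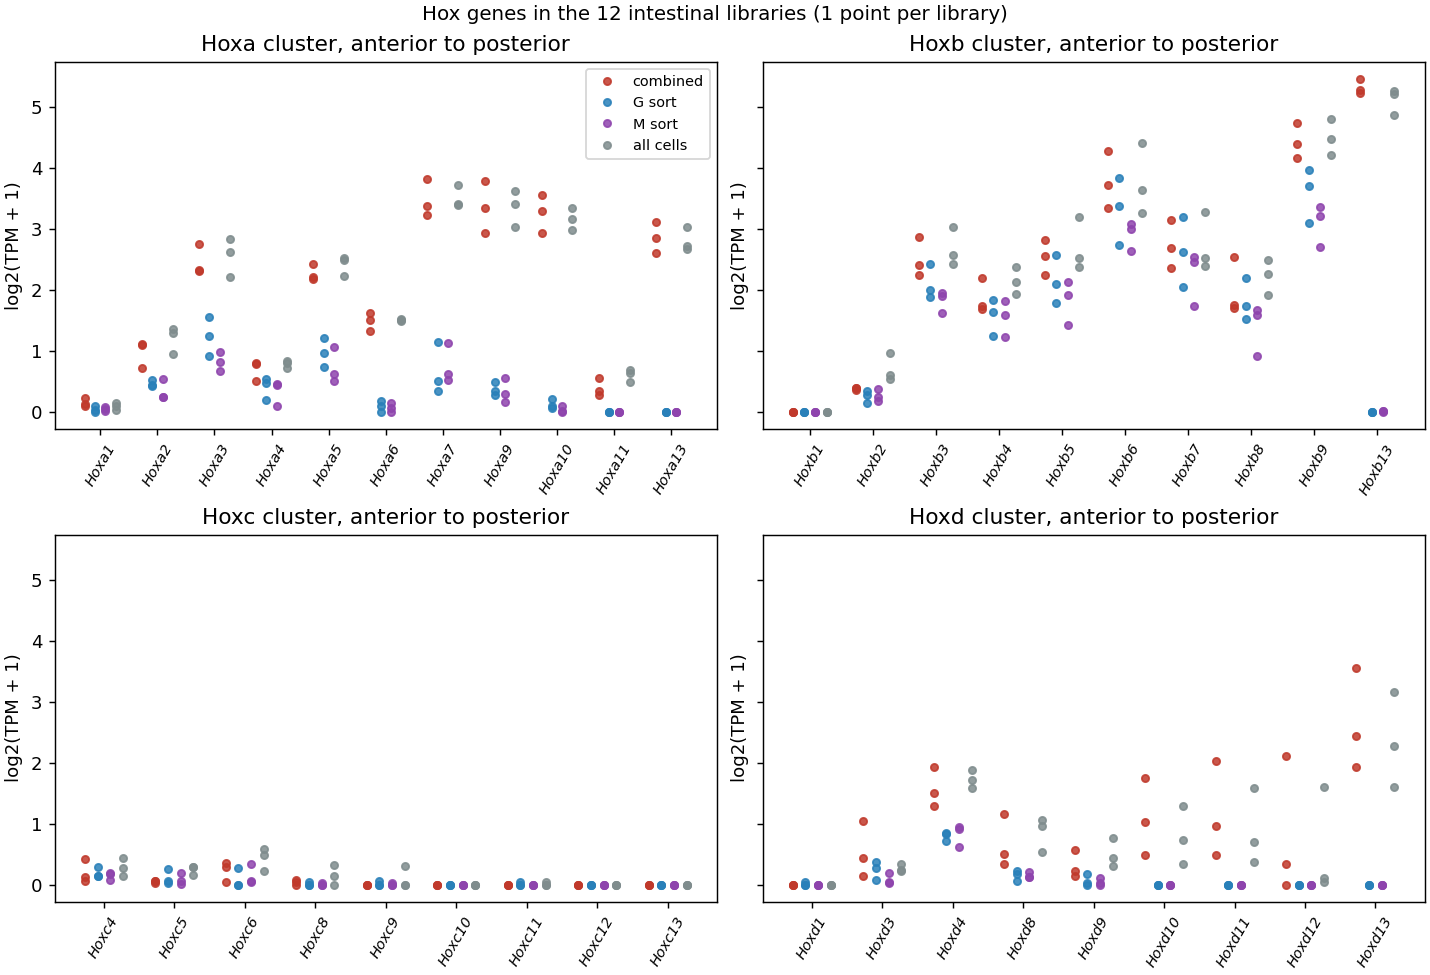
Level of each Hox gene in the 12 intestinal libraries, as log2(TPM + 1) on the vertical axis, with the genes of each cluster ordered from anterior to posterior on the horizontal axis; each point is 1 library. Combined libraries and all cells stand above the single sorts along Hoxa and at Hoxb13 and Hoxd13, overlap with them from Hoxb3 to Hoxb8, and stay low with them throughout Hoxc.

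Secretory genes of the colon were mixed. Of 9 genes on the list, 4 rose and none fell, beside 1.81% of all genes called higher. At an unadjusted p under 0.05 in limma 5 passed, and the median difference was 0.45. Mptx1, a mucosal pentraxin, was at 487, 357 and 858 TPM in the combined libraries and between 2.51 and 8.64 in the single sorts (6.51 ± 0.22, adjusted p = 2.58e-20). Insl5, the insulin-like hormone of colonic endocrine cells, was at 5.06, 3.04 and 3.63 against 0 to 0.99 (2.05 ± 0.18). Retnlb, a goblet cell product directed at bacteria and worms, was at 6.50, 8.94 and 7.15 against 0.06 to 1.85 (2.17 ± 0.17), and Reg4, of deep secretory cells, at 210, 220 and 279 against 60.5 to 173 (1.06 ± 0.19). These 4 did not overlap with the single sorts, beside 7.18% of all genes lying above them. Ang4, Pyy and Gsdmc2 to Gsdmc4 overlapped, with differences from 0.35 to 0.45.

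Cyp2d34, a cytochrome P450, was at 81.2, 59.95 and 63.7 TPM in the combined libraries and at most 0.14 in the single sorts (6.01 ± 0.10, adjusted p = 2.04e-28). Its family was looked at after these values were seen. Cyp2d9 was at 9.54, 5.79 and 6.95 TPM, Cyp2d10 at 14.0, 9.59 and 10.9 and Cyp2d12 at 19.8, 25.9 and 15.2, all above single sorts of at most 0.32. Cyp2d22 and Cyp2d26 overlapped, with means of 8.69 and 80.8 TPM in the combined sort and 9.01 and 118 in the single sorts. Of the 7 genes of the family tested, 4 rose and none fell, beside 1.81% of all genes called higher, and 2 were lower at an unadjusted p under 0.05. The 4 are near 0 in the single sorts and pass the filter through the libraries where they are high, so the count is a description, and near-identical copies may share reads. Sycn, syncollin, a protein of secretory granules best known from the pancreas, was at 255, 216 and 375 TPM against 1.55 to 13.5 (5.73 ± 0.32). The first 2 of these values come from combined libraries 1 and 2, where the pancreatic acinar genes summed to at most 0.14 TPM, and the third from library 3, where they summed to 438. The source of Sycn was not tested.

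**Figure D3:**
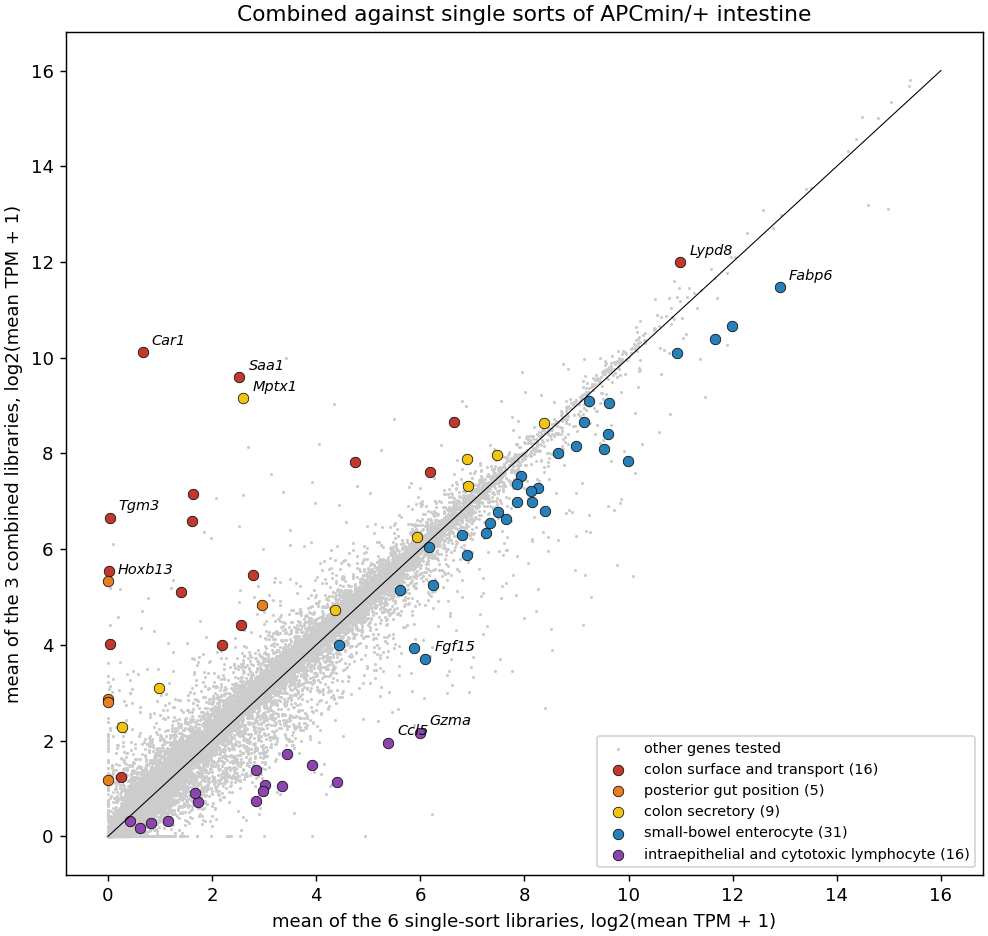
Mean of the 3 combined libraries on the vertical axis against the mean of the 6 single-sort libraries on the horizontal axis, both as log2(mean TPM + 1), for the 18466 genes tested; coloured points are 5 gene lists and the line marks equal levels. Colon surface and posterior genes lie far above the line, small-bowel enterocyte genes slightly below it, and intraepithelial and cytotoxic lymphocyte genes below it at low levels.

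Small-bowel enterocyte genes were expressed in all 9 libraries and were lower in the combined ones by smaller amounts. Of 31 genes, 5 fell and none rose, and 14 lay below all single sorts, beside 3.27% of all genes tested. The median difference was -0.90, and 293 of all genes were called lower (1.59%). At an unadjusted p under 0.05, 26 of the 31 were lower, beside 1622 of the 18466 genes tested. The count of 5 was unsteady: it was 3 without combined library 2, G library 1 or M library 1, and 8 or 9 without any one of the other 6. The summed level was 14676, 8338 and 11397 TPM in the combined libraries and between 18203 and 31941 in the single sorts. The sums did not overlap between the groups.

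Alpi, intestinal alkaline phosphatase of the brush border, was at 136, 112 and 129 TPM in the combined libraries and between 207 and 381 in the single sorts (-1.13 ± 0.21, adjusted p = 0.000199). Npc1l1, which takes up cholesterol, was at 90.8, 77.4 and 126 against 152 to 249 (-1.02 ± 0.19, adjusted p = 0.000376). Both were called in the fit of 9 libraries too, with adjusted p of 0.00962 and 0.0181. Apoc3, an apolipoprotein, and Cyp3a11, a P450 that clears foreign compounds, were called with 39 libraries but overlapped with the single sorts and were not called with 9 (adjusted p = 0.344 and 0.191). Apoa1, the main protein of high-density lipoprotein (-1.29), and Fabp2, a fatty acid carrier (-1.32), were called with 9 libraries (adjusted p = 0.0189 and 0.00903) and not with 39.

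Bile acid genes, which mark the ileum, were mixed. Fgf15, the ileal hormone that tells the liver to stop making bile acids, was at 15.9, 7.67 and 12.9 TPM in the combined libraries and at 35.3, 134 and 30.2 in the G sort and 42.3, 131 and 31.0 in the M sort (-2.12 ± 0.33, adjusted p = 2.2e-05). Library 2 was highest in both single sorts, and with 9 libraries the adjusted p was 0.0968. Fabp6, the ileal bile acid carrier, was at 5242, 1539 and 1797 TPM against 4362 to 11701, with combined library 1 inside the single-sort range (-1.55 ± 0.66, adjusted p = 0.13). Slc10a2, which imports bile acids, was at 125, 28.9 and 42.9 against 35.8 to 121, so combined library 1 was the highest of the 9 (-0.24 ± 0.36, adjusted p = 0.766).

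Other enterocyte genes varied between library numbers. Lct, lactase, was at 10.8, 51.7 and 111 TPM in combined libraries 1 to 3 and 200, 43.5 and 100 in the G sort, and was not called (adjusted p = 0.122). Apoa4 was at 79.3, 310 and 301 against 228 to 2730 and overlapped (-1.79 ± 0.67, adjusted p = 0.0799). Akp3, a second alkaline phosphatase, was at 1.44, 1.16 and 1.85 TPM against 37.6, 5.13 and 4.12 in the G sort and 40.7, 4.05 and 5.10 in the M sort. Reg1, a regenerating-family lectin, was at 17.9, 24.4 and 30.2 against 331, 62.9 and 58.9 in the G sort and 286, 51.4 and 49.1 in the M sort. Ada, adenosine deaminase, was at 6.50, 19.5 and 17.4 against 89.3, 39.6 and 31.5 and 187, 44.2 and 50.5. For these 3 genes the single-sort libraries numbered 1 were the highest, all combined libraries lay below all single sorts, and the calls (-2.13, -2.01 and -2.11) were lost with 9 libraries (adjusted p = 0.214, 0.184 and 0.0865).

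Several epithelial lists gave no call. The 14 shared epithelial genes had a median difference of 0.11, with 0 called and 2 at an unadjusted p under 0.05 in limma. The 9 Paneth genes, antimicrobial products of small-bowel crypts, had a median of 0.42 with 0 called and 3 at an unadjusted p under 0.05. Their sums were 16485, 20416 and 20078 TPM in the combined libraries, 14785 to 24788 in the G sort and 6344 to 13148 in the M sort, so the combined libraries overlapped with the G sort. The 9 goblet genes had 0 called and 2 at an unadjusted p under 0.05, and Muc2, the main gel-forming mucin, was at 2393, 2319 and 2471 TPM against 1225 to 1976 (0.74 ± 0.36, adjusted p = 0.203). The 15 crypt stem and Wnt target genes had 0 called and 9 higher at an unadjusted p under 0.05 in limma. Of the 18466 genes tested, 2989 were higher at that limit. Against the G sort 0 of the 15 were higher at that limit, beside 1477 of all genes. Against the M sort 13 were, beside 4642 of all genes. Lgr5, the stem cell receptor, was at 17.95, 22.9 and 16.3 TPM against 8.08 to 22.5.

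**Figure D4:**
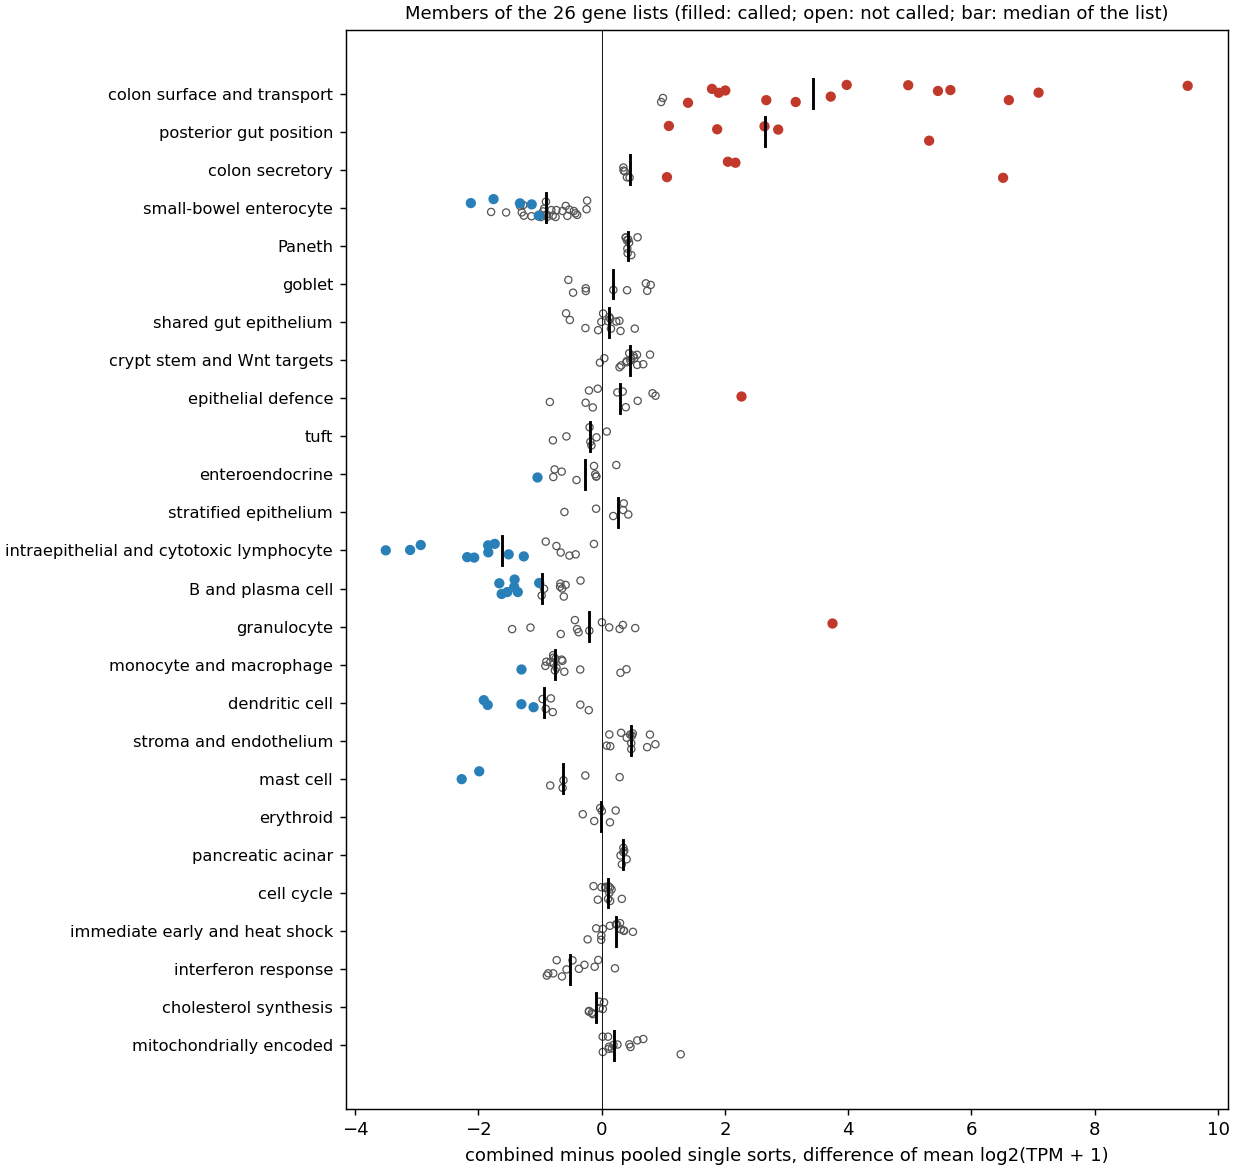
Difference of mean log2(TPM + 1), combined minus pooled single sorts, on the horizontal axis for the tested members of each gene list, 1 list per row; filled points were called, open points were not, and the black bar is the median of the list. The colon surface and posterior lists lie to the right. Medians left of 0 include those of the lymphocyte (-1.62), B and plasma cell (-0.97), dendritic cell (-0.93) and small-bowel enterocyte (-0.90) lists. Those of the monocyte and macrophage (-0.75) and mast cell (-0.63) lists also lie left of 0. Most other lists straddle 0.

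Cytotoxic lymphocyte genes made up the top of the lower side. Gzma, granzyme A, a protease of killer lymphocytes (chromosome 13, 113093825 to 113100981, minus strand), was at 6.40, 1.64 and 2.43 TPM in the combined libraries. It was at 46.2, 20.1 and 18.1 in the G sort and 182, 33.99 and 76.6 in the M sort. The groups did not overlap, with a difference of -3.50 ± 0.42 (adjusted p = 3.09e-07, and 0.0161 with 9 libraries). Gzmb, granzyme B, was at 2.26, 0.69 and 0.69 TPM against 6.50 to 55.5 (-2.93 ± 0.33), and Ccl5, a chemokine of activated T cells, at 5.45, 1.80 and 1.42 against 11.2 to 107 (-3.11 ± 0.40). Library 1 was the highest of its sort for Gzma in all 3 sorts.

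Cd7, a surface receptor of intraepithelial T cells, was at 2.89, 1.52 and 1.07 TPM against 4.90 to 35.03 (-2.18 ± 0.27, adjusted p = 5.36e-07). Itgae, the integrin that holds T cells in the epithelium, was at 2.78, 2.14 and 1.91 against 4.02 to 22.1 (-1.51 ± 0.16). Of the 16 genes of the list, 10 fell and none rose, beside 1.59% of all genes called lower. There were 11 below all single sorts, beside 3.27% of all genes, and the median was -1.62. These 10 were called with 9 libraries as well. Prf1, Xcl1 and Ncr1 overlapped and were not called. Unlike the colon genes, Gzma also differed from all cells, which held 23.4, 13.8 and 12.6 TPM (combined minus all cells -2.06, adjusted p = 0.00689).

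Mucosal mast cell proteases fell as well. Mcpt1 was at 6.39, 4.50 and 2.64 TPM in the combined libraries and between 7.86 and 52.3 in the single sorts (-2.27 ± 0.28, adjusted p = 5.72e-07), and Mcpt2 at 3.78, 3.62 and 1.38 against 4.57 to 26.5 (-1.98 ± 0.27). The other 5 genes of the mast cell list were not called.

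Antigen presentation genes were lower too. H2-DMb1, a chain of the factor that loads peptides on MHC class II, was at 11.9, 8.66 and 7.51 TPM against 20.9 to 87.7 (-2.10 ± 0.25, adjusted p = 2.49e-07). H2-Ab1, a class II chain, was at 139, 97.1 and 97.8 against 228 to 947 (-1.91 ± 0.26), and Cd74, the invariant chain, at 330, 266 and 283 against 556 to 2472 (-1.88 ± 0.27). The 7 class II genes, a list chosen after these values were seen, all fell with no overlap, and all 7 were also lower than in all cells. Over all genes 1.59% were called lower, 3.27% lay below all single sorts, and 3.22% were called lower than in all cells. Ptprc, the pan-leukocyte receptor CD45, was at 13.2, 14.0 and 13.6 TPM against 15.5 to 79.8 (-1.34 ± 0.18, adjusted p = 2.11e-06).

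B and plasma cell genes depended on which single sort was compared. Their sum was 7886, 24560 and 26014 TPM in the combined libraries, 4463 to 10495 in the G sort and 90917 to 125438 in the M sort, so the combined sort lay toward the G sort. Of 15 genes, 7 fell in the pooled comparison, 1 against the G sort and 14 against the M sort, and 1, Cd22, was called in the pooled comparison with 9 libraries. Dendritic cell genes counted 4 of 10 lower in the pooled comparison, 2 against the G sort and 8 against the M sort. Over all genes the shares called lower were 1.59%, 0.368% and 4%.

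Myeloid genes, which the sort is named for, gave few calls in the pooled comparison. S100a8, a calcium-binding protein of neutrophils and monocytes, was at 13.6, 45.1 and 6.88 TPM in the combined libraries and between 3.48 and 197 in the single sorts (0.29 ± 0.65, adjusted p = 0.856). Csf3r, the receptor for granulocyte growth factor, was at 8.18, 12.5 and 1.93 against 2.42 to 9.02 (0.12 ± 0.41). Ly6c2, the antigen of inflammatory monocytes, was at 20.5, 85.4 and 64.1 TPM, 9.45 to 25.9 in the G sort and 377 to 476 in the M sort.

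Ly6g, the surface antigen by which granulocytes are commonly sorted, was the exception. It was at 34.9, 41.0 and 27.5 TPM in the combined libraries, at 0.99, 3.75 and 1.17 in the G sort, at 1.22, 2.03 and 1.29 in the M sort and at 27.9, 18.6 and 16.4 in all cells (combined minus single sorts 3.75 ± 0.45, adjusted p = 4.39e-07). Ly6g was the 1 called gene of 13 on the granulocyte list, and it was also called against each single sort. The other genes of that list gave no call, and 1.81% of all genes tested were called higher. Cd177, which was counted in the colon surface list and rose, is not among the 13. Which cells carried Ly6g, and whether the combined sort held more granulocytes, was not tested. In the monocyte and macrophage list 1 of 16 fell, Lyz2 (-1.31), and this call was lost with 9 libraries (adjusted p = 0.111). Over all genes 1.59% were called lower. The median of the list was -0.75, and 5 of the 16 were lower at an unadjusted p under 0.05 in limma. At that limit 1622 of the 18466 genes tested were lower. Against the M sort alone, 6 of these 16 fell (median -1.20), beside 4% of all genes called lower. Against the G sort 0 of them fell, with 0 lower and 2 higher at an unadjusted p under 0.05 in limma.

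Against each single sort separately, the counts of colon surface and posterior genes were equal, and those of several other lists were not, a difference that was not tested. Against the G sort 355 genes were called (1.92%), 287 higher (1.55%) and 68 lower (0.368%), and against the M sort 1196 (6.48%), 457 higher (2.47%) and 739 lower (4%). The colon surface list counted 14 of 16 higher in both, the posterior list 5 of 5 in both, and the colon secretory list 3 and 4 of 9. Class II genes counted 7 of 7 lower in both. Car1 differed by 9.35 from the G sort and 9.66 from the M sort, and Hoxb13 by 5.32 and 5.30. The lymphocyte list counted 6 of 16 lower against the G sort and 13 against the M sort, and Gzma differed by -2.72 and -4.28. These comparisons share the combined libraries with each other and with the pooled one.

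Against all cells of the intestine, calls fell in the immune, stromal and erythroid lists and not in the colon and small-bowel ones. Between combined and all cells 597 genes were called (3.23%), 2 higher (0.0108%, Scgb2b15 and Gm28439) and 595 lower (3.22%), with 92 higher at an unadjusted p under 0.05. None of the 16 colon surface, 5 posterior, 9 colon secretory and 31 small-bowel enterocyte genes was called in limma, and 1, in the posterior list, was at an unadjusted p under 0.05, with list medians of 0.11, 0.21, -0.06 and -0.10. Lower in the combined sort were 12 of 16 lymphocyte genes, 8 of 15 B and plasma cell genes, 7 of 10 dendritic cell genes, 8 of 13 stromal and endothelial genes and 5 of 6 erythroid genes. Fitted with its 6 libraries alone, this comparison gave 21 calls, and 537 with the replicate number as a block. Equal numbers pair these 2 groups, with correlations of 0.643, 0.59 and 0.628 between their deviations from the group means. Pearson correlations of log2(TPM + 1) across the tested genes were 0.9524 to 0.9854 between combined and all-cell libraries, 0.9578 to 0.9705 between combined and G libraries and 0.936 to 0.9522 between combined and M libraries, and genes are not independent replicates.

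The same comparison in APCmin/+ spleen did not show the colon pattern. In spleen 1 gene was called (0.00542%), Dbndd2 (-1.55), 0 were called higher with 271 higher at an unadjusted p under 0.05, and 225 genes (1.22%) had no overlap, 37 above (0.2%) and 188 below (1.02%). The splenic count was unsteady: it was 382 without combined library 3, 130 without M library 2, between 1 and 35 without any one of the other 7, and 89 with a pseudocount of 0.1. The difference between the intestinal and the splenic contrast was itself tested, and 640 genes passed (3.47%), 455 with a higher (2.46%) and 185 with a lower (1%) intestinal contrast. Car1 differed by -0.51 ± 0.49 in spleen, and by 9.51 in intestine, and the mean of Hoxb13 was at most 0.0233 TPM in the 3 APCmin/+ splenic sorts. Gzma differed by -0.60 ± 0.42 in spleen. Of the 31 small-bowel enterocyte genes, 0 were called in spleen by limma but 16 were lower at an unadjusted p under 0.05. At that limit 1834 of the 18466 genes tested were lower in spleen. So were 7 of 9 Paneth, 7 of 9 goblet and 8 of 14 shared epithelial genes. Of the 31 enterocyte genes, 1 passed the test of the difference between sites.

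**Figure D5:**
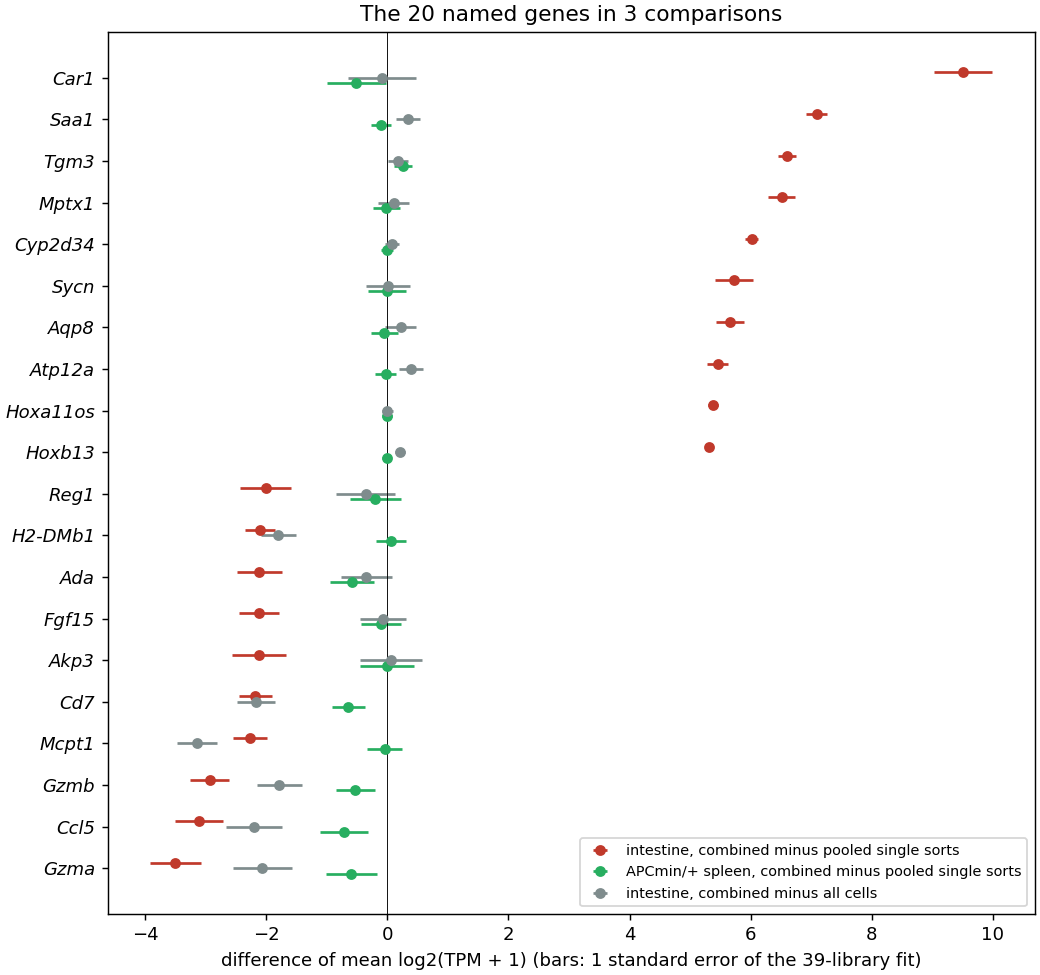
Differences of mean log2(TPM + 1) on the horizontal axis for the 20 genes named by size, 1 gene per row, with bars of 1 standard error from the fit of 39 libraries. The intestinal contrast lies far to the right for the 10 genes that rose, while the splenic contrast and the contrast with all cells lie near 0; for Gzma, Ccl5, Gzmb, Mcpt1, Cd7 and H2-DMb1 the contrast with all cells is also below 0.

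Over the whole table the called genes divided differently by fit. In total 628 genes were called (3.4%), 335 higher and 293 lower, so 53.3% were higher. After rescaling each library by its median ratio, 772 were called and 40.3% were higher, and with 9 libraries alone 450 were called, 313 higher and 137 lower, of which 441 were among the 628. Among the 311 genes called and above, 307 were also called with 9 libraries, and among the 111 called and below, 84 were. For combined library 3 alone, which is at or near 0 for the Y-linked genes, 516 genes passed the same limits, 363 higher and 153 lower. With 1 library in the arm, the spread comes from the other groups and that library is assumed to vary like them, so these counts describe 1 library. They were 13 of 16 colon surface, 4 of 5 posterior and 4 of 9 colon secretory genes higher, and 9 of 16 lymphocyte, 2 of 31 small-bowel enterocyte, 2 of 10 dendritic cell, 2 of 7 mast cell, 0 of 15 B and plasma cell and 0 of 16 monocyte and macrophage genes lower. With all 3 combined libraries the lower counts of these lists were 10, 5, 4, 2, 7 and 1. The 4 Y-linked genes were called higher with 39 libraries, overlapped with the single sorts through library 3, and were not called with 9.

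Levels outside the intestine were not used by the rule of no overlap, but they entered the filter and the spread behind the calls. A gene with little spread in those groups is called more easily, so the shares below carry that choice and are a description. Of the 311 genes above, 159 (51.1%) had a mean under 1 TPM in all 9 groups outside the intestine, against 10.8% of all genes tested. Of the 111 genes below, 24 (21.6%) did, also above that share. A mean of at least 10 TPM in a group outside the intestine was reached by 88 of the 311 (28.3%) and 72 of the 111 (64.9%), the latter near the 58.7% of all genes. As a description of what the rule chose, 115 of the 311 had a single-sort mean under 1 TPM, 14 were listed at 0 in all 6 single sorts, and 36 differed by at least 3, while 2 of the 111 differed by that much. Just inside the rule lay Dbp, with a lowest combined value of 3.92 TPM and a highest single value of 3.72, and Leap2, with a highest combined value of 13.6 and a lowest single value of 13.7. Just outside lay Kdm5d, whose lowest combined and highest single values were both 0.01, and Slc46a3, whose highest combined value was 16.2 and lowest single value 16.1.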

How the data were processed

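Sorting was into Trizol, and libraries from a stranded TruSeq mRNA kit were read singly on a NextSeq, per the labels' protocols. STAR 2.6.1c alignment to mm10 and RSEM quantification are named in the submitters' processing notes; the RSEM version and gene annotation are not given there. The authors deposited gene-level TPM for 53465 genes, summing to 1000000 per library, so depth is unknown and counting intervals cannot be had. The 26 symbols deposited as dates were restored, 53274 identifiers were matched to names, and no libraries were identical.

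The 18466 genes with TPM of at least 1 in at least 3 of 39 libraries (of 35653 above 0) were analysed as log2(TPM + 1), which understates the change of low genes. limma 3.58.1 in R 4.3.3 fitted 1 mean per group over 39 libraries (26 residual degrees of freedom, median prior 3.3), with a variance trend, a robust prior and two-sided moderated tests adjusted by Benjamini-Hochberg over all genes of each of 6 comparisons. The code was tested on simulated data. Alternatives were a pseudocount of 0.1, no filter, median-ratio rescaling over 6908 genes, no fold minimum, fits of the compared libraries alone, a replicate block and each library left out; the fits and omissions for the comparisons with spleen and all cells, and the use of combined library 3 alone, were chosen after seeing the data. Figures and promoter searches used Python 3.11.15, and gene positions are from GENCODE on GRCm38.

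The members and the 27 lists (322 genes) were chosen with earlier results of these data known. Named genes are the 4 markers and their relatives, the 10 largest and 10 smallest called differences without overlap at a mean of at least 10 TPM (pseudogenes, provisional symbols and antigen receptor segments left out), the 4 colon and small-bowel lists, up to 4 members of each other list, and a panel. The text gives a subset of these; other list members, the Hox, class II and Cyp2d genes were chosen after their values were seen. 1 member of the posterior gut list is counted but not reported here.

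Whether equal numbers pair libraries was checked by the correlation of their deviations from the group means. These were 0.189, 0.137 and 0.184 for combined with G, 0.142, 0.0569 and 0.141 for combined with M, 0.599, 0.432 and 0.562 for G with M, and 0.643, 0.59 and 0.628 for combined with all cells. The limit of 0.1 was passed by G with M, combined with G and combined with all cells, but not by combined with M. This rests on the data and not on the labels. Combined and G libraries 1 and 2 differ in sex-linked transcripts, so equal numbers do not show a shared mouse for that pair of groups.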

Additional observations from a re-analysis of the deposited data

Results flagged for a closer look

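The contrast of the combined sort with the pooled single sorts differed between intestine and APCmin/+ spleen for 640 genes, tested in limma as the difference of the contrasts. It differed for 18 of the 20 genes named by size, beside 3.47% of all genes tested. These 20 were chosen by their intestinal contrast, which is part of the difference, so the count is a description. On log2(TPM + 1) the intestinal minus splenic difference was 10.02 for Car1, 7.19 for Saa1, 6.53 for Mptx1, 6.35 for Tgm3, 6.02 for Cyp2d34, 5.73 for Sycn, 5.71 for Aqp8, 5.48 for Atp12a, 5.37 for Hoxa11os and 5.32 for Hoxb13. It was -2.90 for Gzma, -2.41 for Gzmb, -2.39 for Ccl5, -2.22 for Mcpt1, -2.16 for H2-DMb1, -2.12 for Akp3, -2.01 for Fgf15 and -1.54 for Cd7. Ada and Reg1 did not pass. Several of these genes are near 0 in every splenic library, Hoxa11os is listed at 0 in all single sorts of the intestine, and there the value depends on the pseudocount.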

How the results depend on the processing

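The main limits are 3 libraries a group, unknown depth, and a spread shared with 30 other libraries. Among 189 named genes the direction of a call reversed in no alternative but combined library 3 alone, for Ddx3y (-0.017) and Eif2s3y (-0.041). The median-ratio rescaling moved the median of all genes from 0.08 to -0.00. Of 1296 list counts and medians under alternatives, 93 moved, among them small-bowel enterocyte genes called lower, from 5 to 2 with a pseudocount of 0.1 and to 13 after rescaling. With a pseudocount of 0.1 the pooled comparison gave 1091 calls (524 higher, 567 lower), the M sort 1839, spleen 89 and all cells 968. Without a fold minimum the pooled comparison gave 2433 (1486 higher, 947 lower). Rescaling gave 461 lower and 1053 genes below all single sorts. In fits of the compared libraries alone 137 pooled genes were lower, spleen gave 0 (723 at an unadjusted p under 0.05 in limma), the difference between sites 354 and all cells 21. With the replicate block the pooled comparison gave 544 calls (320 higher), spleen 0 (1505 at an unadjusted p under 0.05) and all cells 537. Combined library 3 alone, its spread taken from the other groups, gave 153 lower, 3991 above and 1884 below. Where leaving out a library left 2 in a group, the shared spread was used. Leaving out each library in turn gave 590 to 688 pooled calls (299 to 397 higher, 235 to 360 lower), 1351 to 2221 genes above and 638 to 1136 below, 326 to 435 against the G sort, 1078 to 1281 against the M sort, 1 to 382 in spleen, 477 to 929 for the difference and 361 to 873 against all cells. Moves of over 1.5 times came without combined library 1 (2221 above, 1136 below), G library 1 (1004 below), G library 2 (2101 above), all-cell library 2 (361), and in spleen without combined library 1 (10) or 3 (382), G library 1 (20) or 3 (6), or M library 1 (14), 2 (130) or 3 (35). The causes were not tested.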
